A study of Homo sapiens with 15 samples.

Results

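Expression of 9 genes, made up of targets of the transcription factor p53 and inhibitors of cyclin-dependent kinases (CDKs), was examined in ccRCC cells with and without *ANGPTL4*. The genes were taken by their symbols and were *MDM2*, *CDKN1A*, *GDF15*, *FDXR*, *CDKN1B*, *CDKN1C*, *CDKN2A*, *CDKN2B* and *CDKN2C*. Of the 9 genes, 7 have a row among the 16296 genes of the CAKi-1 table and the 16188 genes of the 786O table. *CDKN2A* and *CDKN2B* have no row in either table and were not analysed here.

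CAKi-1 and 786O are human clear cell renal cell carcinoma (ccRCC) cell lines, and *ANGPTL4*, a secreted inhibitor of lipoprotein lipase, was the gene removed. RNA was sequenced from 4 WT and 5 A4KO (ANGPTL4 knockout) libraries of CAKi-1 and from 3 WT and 3 A4KO libraries of 786O, all from untreated cells harvested in log phase, with a stated depth of 3000000 reads per library. The A4KO cells of both lines were pools of single clones that had lost *ANGPTL4* after editing with Cas9 and a guide RNA. The 786O WT cells were pooled clones that had kept *ANGPTL4*. For the CAKi-1 WT cells the sources differ, since the study's methods name parental cells and the series description pooled clones that had kept the gene. If they were parental, loss of *ANGPTL4* and passage through editing and cloning cannot be told apart in CAKi-1. In 786O, WT and A4KO were pools of different clones. Loss of *ANGPTL4* and differences between those clones cannot be fully told apart there. The labels do not say that replicates came from separate cultures, and the p-values then measure only the spread between these libraries.

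p53 is kept low by MDM2, an E3 ubiquitin ligase whose own gene is a p53 target, which makes a feedback loop. Once p53 accumulates, as after DNA damage, it raises genes for cell cycle arrest, DNA repair and cell death, of which *CDKN1A* (p21) is the best known arrest gene. CDK inhibitors fall into the CIP/KIP family (*CDKN1A*, *CDKN1B* and *CDKN1C*), which binds cyclin-CDK complexes, and the INK4 family (*CDKN2A*, *CDKN2B*, *CDKN2C* and *CDKN2D*), which binds CDK4 and CDK6 and so keeps the RB protein active.

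To show where the p53-linked genes stand on the genome and which of them carry sequence of the kind p53 binds, pairs of adjacent p53 half-sites, of 10 bases each, were searched in hg38 within 5000 bases of the canonical transcript start in GENCODE v44. The pattern reads the same on both strands. With no spacer, the central C and G of each half-site kept and at most 2 mismatches of 20 bases, 4 of the 7 genes with data held a match, against 17 of 35 other p53 targets and 1298 of 17193 genes of the tables (7.55%). With at most 1 mismatch, 0 of the 7 genes, 8 of the 35 targets and 1.04% of all genes held a match, and with no mismatch 0, 2 and 0.14%. The matches lie at chr12:68808923-68808942 in an intron of *MDM2*, 756 bases after its start, at chr6:36676449-36676468, 2256 bases before the canonical start of *CDKN1A* and partly in an exon of a longer transcript, at chr19:18385308-18385327, 840 bases before the canonical start of *GDF15* and in an intron of a longer transcript, and at chr1:50965566-50965585, 4670 bases before the canonical start of *CDKN2C* and in an intron of a longer transcript. The capitals mark the 4-base cores of the half-sites, all 4 genes lie on the plus strand, and a match describes the sequence and is not a measured binding site.
MDM2: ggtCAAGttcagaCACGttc
CDKN1A: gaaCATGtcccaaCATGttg
GDF15: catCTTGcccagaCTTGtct
CDKN2C: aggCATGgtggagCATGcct

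No match of this kind lies in the windows of *CDKN1B*, *CDKN1C* and *FDXR*. The genes with data lie on hg38 chromosomes 12 (*MDM2*, 68808177 to 68845544, and *CDKN1B*, 12685498 to 12722369), 6 (*CDKN1A*, 36676460 to 36687337), 19 (*GDF15*, 18374731 to 18389176), 17 (*FDXR*, 74862497 to 74873031), 11 (*CDKN1C*, 2883213 to 2885775) and 1 (*CDKN2C*, 50960745 to 50974634). Exons of *CPM* overlap those of *MDM2* and exons of *DINOL* overlap those of *CDKN1A*, both on the opposite strand, and the sources do not say that the counting used strand. Genes without a symbol also overlap exons of *MDM2*, on both strands, and exons of *CDKN2C*, on the opposite strand.

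The genotype labels were checked first. *ANGPTL4* was at 71.7 to 86.9 TPM (transcript abundance set per transcript length and library total) in CAKi-1 WT and at 2.87 to 7.26 TPM in CAKi-1 A4KO, and at 17.6 to 20.6 TPM and 1.86 to 2.19 TPM in 786O. CAKi-1 A4KO libraries 1 and 4 stood apart from A4KO libraries 2, 3 and 5, with a root mean square difference over genes of 0.343 to 0.404 on the log2 scale between both sets and 0.179 to 0.212 within them. Results in CAKi-1 that rest on those libraries are therefore given also with A4KO libraries 2, 3 and 5 alone. The CAKi-1 WT libraries differed from each other by 0.1665 to 0.315, the most between WT libraries 1 and 4. Of 11 markers of renal tumour lines, 9 had a row for CAKi-1, where 2 rose and 4 fell, and all 11 had a row for 786O, where 3 rose and 8 fell, at an adjusted p of at most 0.05. Over all genes, 17.9% rose and 21.1% fell in CAKi-1 and 27.5% rose and 33.5% fell in 786O. The renal transcription factor gene *PAX8* was at 143 to 230 TPM in CAKi-1 (log2 fold change 0.11, adjusted p = 0.578 by limma over all genes of the line) and fell in 786O from 225 to 238 TPM in WT to 148 to 155 TPM in A4KO (-0.60, adjusted p = 4.48e-05). The keratin genes *KRT8* and *KRT18*, *VIM* and *CDH2* fell in both lines, *KRT8* by 1.88 on the log2 scale in CAKi-1 (adjusted p = 3.20e-04), and *CA9*, a hypoxia marker of ccRCC, had no row for CAKi-1 and fell in 786O (-2.73, adjusted p = 7.24e-06). Of 9 markers of other cell types, 6 had a row for CAKi-1 and 5 for 786O, and *CD3E*, *CDH5* and *VWF* had no row in either. *PTPRC* of white blood cells reached at most 0.541 TPM. In CAKi-1 1 of the 6 rose and 0 fell, and in 786O 1 of the 5 rose and 2 fell. All those with a row summed to 71.7 to 75.3 TPM in CAKi-1 WT and 68.7 to 89.3 TPM in CAKi-1 A4KO, and to 44 to 45.6 TPM in 786O WT and 24.9 to 27.7 TPM in 786O A4KO. In 786O *CD68*, which made up most of the sum, fell from 42.4 to 43.6 TPM in WT to 19.3 to 20.9 TPM in A4KO (log2 fold change -1.06, adjusted p = 5.73e-06), *PECAM1* fell (-0.46, adjusted p = 0.0104) and *PDGFRB* rose from 0.354 to 0.491 TPM to 3.47 to 5.63 TPM (2.0, adjusted p = 5.85e-05). Without *CD68* and *PDGFRB* the remaining markers summed to 1.38 to 1.92 TPM in CAKi-1 WT and 2.19 to 6.96 TPM in CAKi-1 A4KO, where *PECAM1* rose, and to 1.05 to 1.71 TPM over the 786O libraries. The part of these marker differences in the results that follow was not tested.

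Loss of *ANGPTL4* was accompanied by opposite differences of the p53 targets *CDKN1A* and *MDM2* in the 2 lines. *CDKN1A* and *MDM2* were 1.35-fold and 1.41-fold lower in CAKi-1 A4KO cells and 3.71-fold and 2.23-fold higher in 786O A4KO cells. The p53 targets *FDXR* and *GDF15* did not share this pattern. *FDXR* rose in both lines, and *GDF15* rose in 786O while its groups overlapped in CAKi-1. *CDKN1C* was lower in both lines and 15.4-fold lower in 786O, the largest difference among these genes. In bulk libraries a lower level in every cell and a smaller share of expressing cells cannot be told apart. A gene was counted as past the test at an adjusted p of at most 0.05 (limma on log2(TPM + 1), Benjamini-Hochberg over all genes of the line), and as called when its log2 fold change was also 1 or more in size. In CAKi-1, 1 of the 7 genes rose and 3 fell, where 17.9% of all genes rose and 21.1% fell, and 0 were called, where 3.33% of all genes were. In 786O, 5 of the 7 rose and 1 fell, where 27.5% of all genes rose and 33.5% fell, and 3 were called, where 7.62% of all genes were. The libraries of WT and A4KO did not overlap for 3 of the 7 genes in CAKi-1 and for 6 of the 7 in 786O, where 35.9% and 66.9% of all genes did not overlap. The plot of levels by library shows the 7 genes in both lines.

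**Figure D1:**
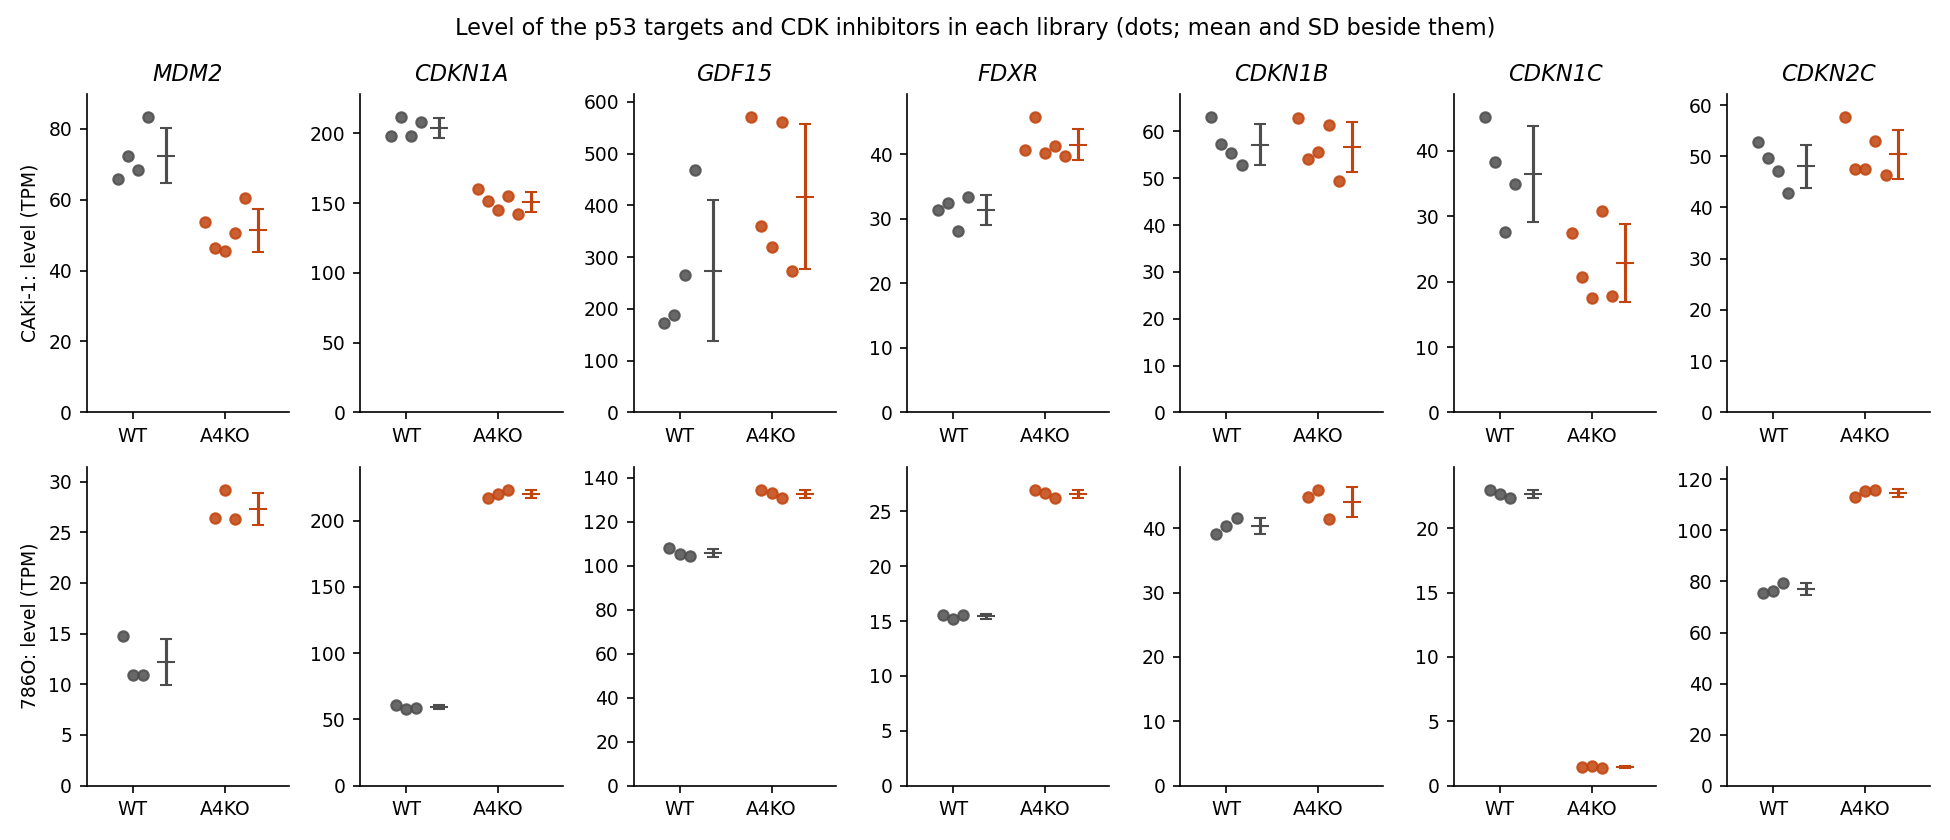
Level in TPM (vertical axes, each from 0) of 7 genes in every WT (grey) and A4KO (red) library of CAKi-1 (upper row) and 786O (lower row), with the mean and SD of each group beside the dots. *CDKN1A* sat between 142 and 160 TPM in the CAKi-1 A4KO libraries, below all WT libraries, and between 218 and 223 TPM in the 786O A4KO libraries, above all WT libraries.

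*MDM2* encodes the ligase that marks p53 for degradation. In CAKi-1 it was at 65.7, 72.3, 68.2 and 83.2 TPM across the WT libraries and 53.6, 46.4, 45.5, 50.6 and 60.3 TPM across the A4KO libraries. All 5 A4KO libraries were below all 4 WT libraries. The log2 fold change was -0.49 (SE 0.098, adjusted p = 0.00418), and -0.51 (adjusted p = 0.0130) with A4KO libraries 2, 3 and 5 alone. When the median deviation of 25 neighbouring genes on each side was taken off in every library, it was -0.32 (adjusted p = 0.0323).

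In 786O *MDM2* was at 14.8, 10.9 and 10.96 TPM across WT and 26.4, 29.1 and 26.3 TPM across A4KO. The A4KO libraries all lay above the WT libraries, and WT library 1 was the highest of its group. This gave a log2 fold change of 1.11 (SE 0.12, adjusted p = 3.34e-04). Of 8 genes near *MDM2* at 12q15, 0 rose and 3 fell in CAKi-1 and 4 rose and 2 fell in 786O, where 17.9% of all genes rose and 21.1% fell in CAKi-1 and 27.5% rose and 33.5% fell in 786O. With the neighbouring genes taken off, the 12q15 counts were 1 higher and 1 lower in CAKi-1 and 0 higher and 2 lower in 786O. *CPM*, a carboxypeptidase gene that shares exonic sequence with *MDM2* on the other strand, was at 17.6 to 25.4 TPM over the CAKi-1 libraries (log2 fold change 0.04, adjusted p = 0.782) and fell in 786O from 2.71 to 4.76 TPM in WT to 0.746 to 1.32 TPM in A4KO (log2 fold change -1.27, adjusted p = 0.00124).

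*CDKN1A* encodes p21, which binds cyclin-CDK complexes and the replication clamp PCNA. In CAKi-1 it was at 197.8, 211.7, 198.3 and 208.0 TPM across WT and 160.0, 151.7, 145.4, 154.8 and 142.2 TPM across A4KO. The groups were far apart compared with their own spread (SD 6.98 and 7.14 TPM). This was a log2 fold change of -0.43 (SE 0.051, adjusted p = 2.65e-04), and -0.47 (adjusted p = 3.35e-04) with A4KO libraries 2, 3 and 5 alone.

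In 786O *CDKN1A* was at 61.1, 58.2 and 58.8 TPM across WT and 217.5, 220.1 and 222.9 TPM across A4KO. The A4KO level in 786O was above the WT level of CAKi-1, and the WT level in 786O was below the A4KO level of CAKi-1, although the tables of the lines were made separately and the lines were not tested against each other. The log2 fold change in 786O was 1.87 (SE 0.036, adjusted p = 5.10e-07). An exact permutation test of 3 against 3 libraries cannot go below p = 0.1, so none was used in 786O.

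*GDF15* encodes a secreted stress cytokine of the TGF-beta superfamily that is raised by p53 and by the ATF4 and CHOP stress pathway. In CAKi-1 it was at 172.3, 188.7, 265.5 and 468.6 TPM across WT and 570.4, 359.9, 319.0, 561.4 and 272.2 TPM across A4KO. It was the most variable of the 7 genes in CAKi-1, its groups overlapped through WT library 4, and A4KO libraries 1 and 4, which stood apart, were its 2 highest. The log2 fold change of 0.66 (SE 0.33) did not pass the test (adjusted p = 0.143). It was 0.95 (adjusted p = 0.0290) without WT library 4 and 0.32 (adjusted p = 0.489) with A4KO libraries 2, 3 and 5 alone, so 1 WT library decided the call. In 786O, *GDF15* was at 107.8, 105.2 and 104.4 TPM across WT and 134.2, 132.8 and 130.7 TPM across A4KO. It rose with no overlap (log2 fold change 0.32, SE 0.034, adjusted p = 3.07e-04).

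*FDXR* encodes the mitochondrial ferredoxin reductase, which feeds electrons to steroid synthesis and iron-sulfur cluster assembly, and was the only one of the 7 genes to rise in both lines. In CAKi-1 it was at 31.4, 32.4, 28.2 and 33.4 TPM across WT and 40.7, 45.8, 40.2, 41.2 and 39.7 TPM across A4KO. In 786O it was at 15.5, 15.2 and 15.6 TPM across WT and 26.9, 26.6 and 26.2 TPM across A4KO. No A4KO library overlapped a WT library in either line. It rose by a log2 fold change of 0.39 (SE 0.065, adjusted p = 0.00150) in CAKi-1 and 0.75 (SE 0.033, adjusted p = 8.77e-06) in 786O. With the neighbouring genes taken off, the value in 786O was 0.42 (adjusted p = 1.69e-04).

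**Figure D2:**
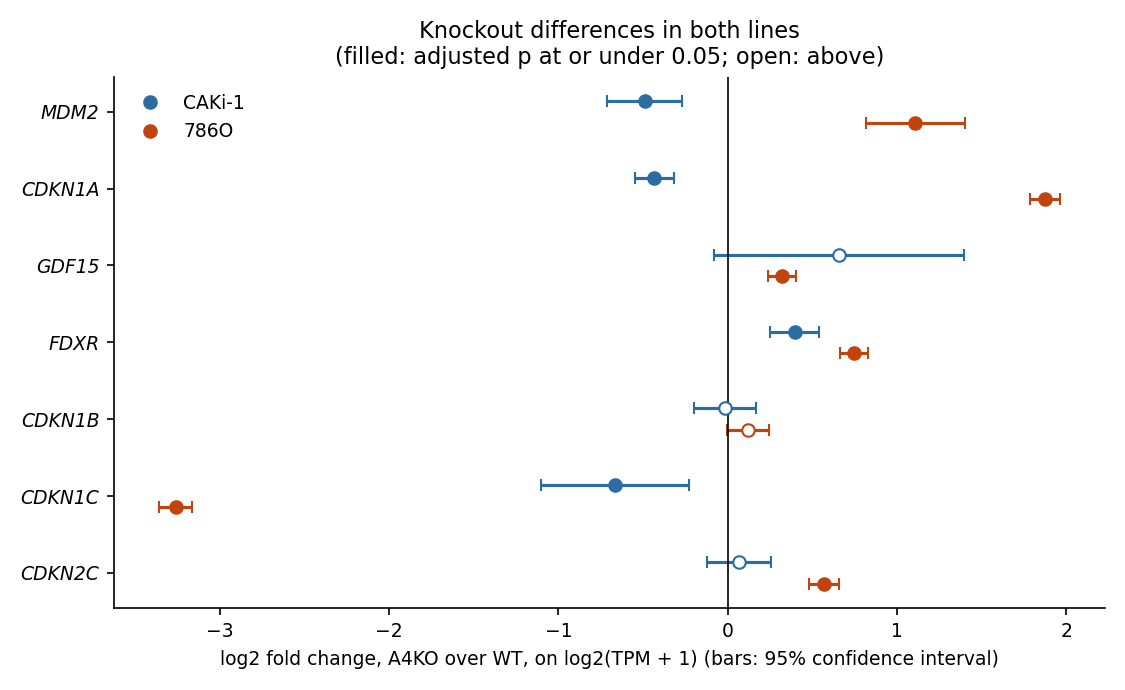
Log2 fold change of A4KO over WT on the log2(TPM + 1) scale (horizontal axis) for 7 genes in CAKi-1 (blue) and 786O (red), with bars for the 95% confidence interval and filled points for an adjusted p of at most 0.05. *MDM2* and *CDKN1A* lie left of 0 in CAKi-1 (-0.49 and -0.43) and right of 0 in 786O (1.11 and 1.87), and *CDKN1C* lies left of 0 in both (-0.67 and -3.26).

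Neither of the other CIP/KIP genes rose in 786O as *CDKN1A* did. *CDKN1B* (p27), which holds CDK2 complexes inactive in resting cells, was at 63.0, 57.3, 55.5 and 52.8 TPM across CAKi-1 WT and 62.7, 54.0, 55.7, 61.3 and 49.5 TPM across CAKi-1 A4KO. In 786O it was at 39.1, 40.3 and 41.6 TPM across WT and 44.8, 45.9 and 41.4 TPM across A4KO. The groups overlapped in both lines. The log2 fold change was -0.02 in CAKi-1 (95% confidence interval -0.20 to 0.17, adjusted p = 0.902) and 0.12 in 786O (-0.0024 to 0.25, adjusted p = 0.0822), and neither passed the test. In 786O the call rested on 1 library and on the scaling, since without A4KO library 3 the value was 0.16 (adjusted p = 0.0291) and with each library scaled by its median ratio to the line mean it was 0.16 (adjusted p = 0.0435).

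*CDKN1C* (p57) is an imprinted growth-restraining gene at 11p15, expressed in most tissues from the maternal copy. In 786O it was at 22.9, 22.7 and 22.3 TPM across WT and 1.46, 1.56 and 1.38 TPM across A4KO. All 3 A4KO libraries kept a low level that varied little. The gene fell by 3.26 on the log2 scale (SE 0.041, adjusted p = 1.15e-07), and its log2 fold change was -3.11 (adjusted p = 1.07e-07) with the neighbouring genes taken off. On the same log2(TPM + 1) scale this understates the ratio of the mean levels, which was 15.4-fold.

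In CAKi-1 *CDKN1C* was at 45.2, 38.3, 27.6 and 34.9 TPM across WT and 27.5, 20.6, 17.5, 30.8 and 17.9 TPM across A4KO. The groups overlapped, because A4KO library 4 was above WT library 3. The log2 fold change was -0.67 (SE 0.19, adjusted p = 0.0230), and -0.91 (adjusted p = 0.00306) with A4KO libraries 2, 3 and 5 alone. The call was lost without WT library 1 (-0.56, adjusted p = 0.0682), without WT library 2 (-0.64, adjusted p = 0.0613) and with the neighbouring genes taken off (-0.35, adjusted p = 0.139).

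An exact two-sided permutation test over the CAKi-1 libraries was run for each of the 7 genes. It gave p = 0.00794, the smallest that its 126 permutations can give, for *CDKN1A* and *FDXR*, 0.0159 for *MDM2*, 0.0317 for *CDKN1C* and 0.111 for *GDF15*. *CDKN2C* and *CDKN1B* had exact p = 0.468 and 0.849. These values are not adjusted for the 7 tests, and that of *CDKN1C* would not stay under 0.05 after such an adjustment.

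Other 11p15 genes were set beside *CDKN1C*. Of 7 neighbours with data, 1 rose and 4 fell in CAKi-1, and 0 rose and 4 fell in 786O, where all genes gave 17.9% and 21.1% in CAKi-1 and 27.5% and 33.5% in 786O. *PHLDA2*, an imprinted gene that limits placental growth, fell in both lines (log2 fold change -1.25, adjusted p = 0.00705, in CAKi-1 and -0.43, adjusted p = 0.0115, in 786O). *IGF2*, the imprinted growth factor gene expressed from the paternal copy, rose in CAKi-1 from 0.0117 to 0.264 TPM in WT to 15.5 to 27.2 TPM in A4KO (log2 fold change 4.24, adjusted p = 5.02e-07). *SLC22A18*, another imprinted gene of the cluster, fell in 786O (log2 fold change -0.65, adjusted p = 0.00160). With the neighbouring genes taken off, the 11p15 counts were 1 higher and 1 lower in CAKi-1 and 3 higher and 1 lower in 786O.

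**Figure D3:**
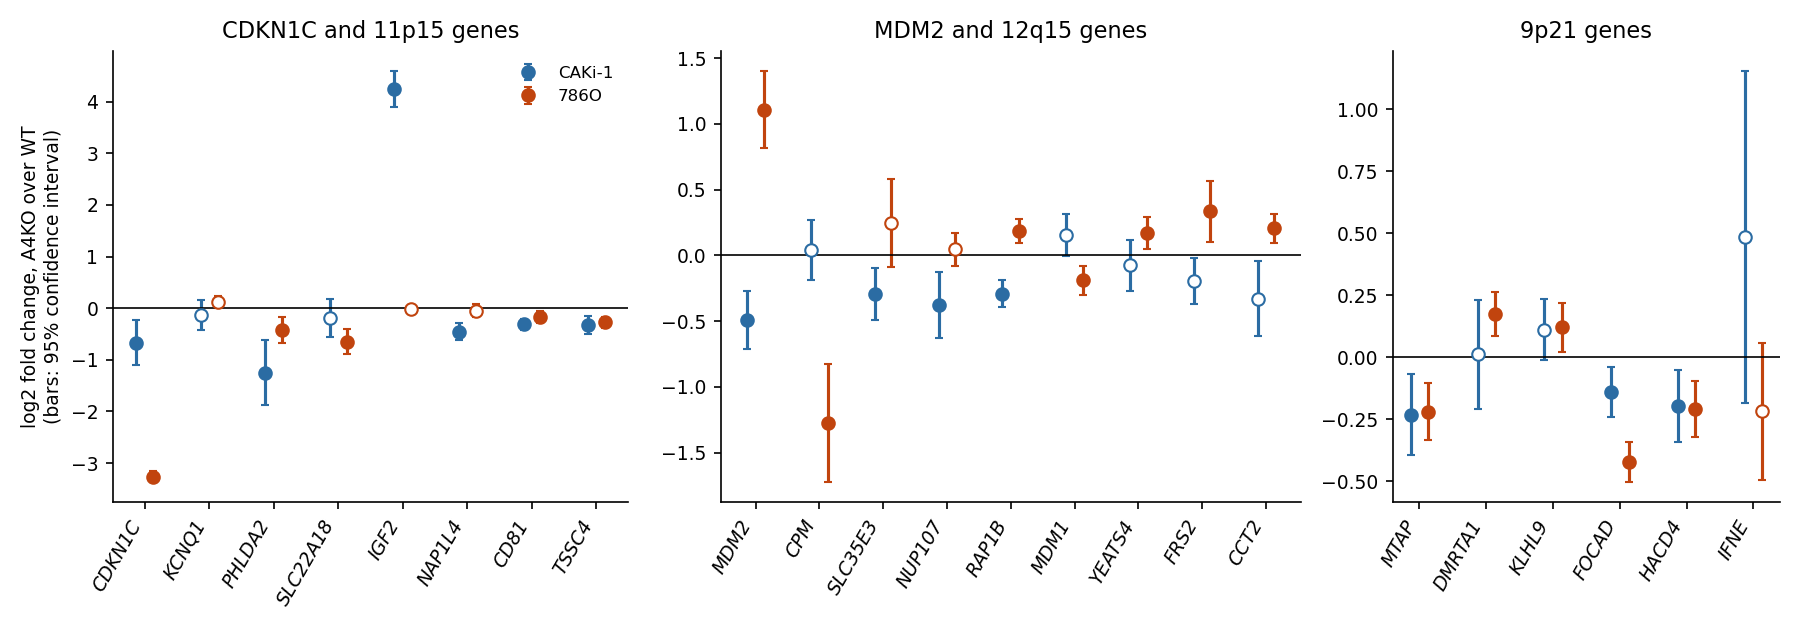
Log2 fold change of A4KO over WT (vertical axes, a scale for each panel) with the 95% confidence interval for *CDKN1C* and 11p15 genes, *MDM2* and 12q15 genes, and 9p21 genes near the places of *CDKN2A* and *CDKN2B*, in CAKi-1 (blue) and 786O (red), filled where the adjusted p was at most 0.05. *CDKN1C* in 786O (-3.26) and *IGF2* in CAKi-1 (4.24) lie farthest from 0.

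The INK4 genes could be followed only in part. *CDKN2C* (p18), which binds CDK4 and CDK6, was at 52.8, 49.6, 47.0 and 42.9 TPM across CAKi-1 WT and 57.6, 47.6, 47.6, 52.95 and 46.4 TPM across CAKi-1 A4KO. In 786O it was at 75.3, 76.3 and 79.5 TPM across WT and 112.9, 115.6 and 115.7 TPM across A4KO. The groups overlapped in CAKi-1 (log2 fold change 0.07, 95% confidence interval -0.12 to 0.25, adjusted p = 0.563) and were separate in 786O, where the gene rose (0.57, SE 0.037, adjusted p = 3.90e-05). *CDKN2D* (p19), the remaining INK4 gene, was at 5.56 ± 0.29 TPM (SD, n = 4) in WT and 5.596 ± 0.89 TPM (n = 5) in A4KO of CAKi-1 (log2 fold change -0.0021, adjusted p = 0.989). In 786O *CDKN2D* rose from 13.95 ± 0.55 to 23.4 ± 1.72 TPM (n = 3 each; log2 fold change 0.71, adjusted p = 1.33e-04).

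Near the places of *CDKN2A* and *CDKN2B* at 9p21, the antisense gene *CDKN2B-AS1* also had no row, whereas *MTAP*, the neighbouring methylthioadenosine phosphorylase gene, was expressed. *MTAP* was at 52.3 to 58.3 TPM in CAKi-1 WT and 42.4 to 52.5 TPM in CAKi-1 A4KO (log2 fold change -0.23, adjusted p = 0.0326). It was at 46.2 to 48.9 TPM in 786O WT and 39.1 to 42.6 TPM in 786O A4KO (log2 fold change -0.22, adjusted p = 0.00716). Of 6 genes with data at 9p21, 0 rose and 3 fell in CAKi-1 and 2 rose and 3 fell in 786O, against the same shares of all genes, and the CAKi-1 count was 0 with that scaling by the median ratio and 1 lower under quantile normalization, which gives every library the same distribution of values. With the neighbouring genes taken off, 2 rose and 1 fell in 786O.

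The order of the levels changed with genotype. In CAKi-1 WT, *GDF15* had the highest mean (274 TPM) and overlapped *CDKN1A* (204 TPM), followed by *MDM2*, *CDKN1B*, *CDKN2C*, *CDKN1C* and *FDXR* (31.4 TPM), where *CDKN2C* and *CDKN1C* overlapped and so did *CDKN1C* and *FDXR*. In CAKi-1 A4KO, *GDF15* (417 TPM) was above every other gene in its range and *CDKN1C* (22.9 TPM) came last, and the ranges of *CDKN1B*, *MDM2* and *CDKN2C* overlapped from one to the next. In 786O WT the order was *GDF15* (106 TPM), *CDKN2C*, *CDKN1A*, *CDKN1B*, *CDKN1C*, *FDXR* and *MDM2* (12.2 TPM) with no overlap between neighbours. In 786O A4KO, *CDKN1A* (220 TPM) came first and *CDKN1C* (1.47 TPM) last, and of the neighbours in this order only *MDM2* and *FDXR* overlapped.

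Whether the knockout difference itself differed between the lines was tested with an interaction term over 15 libraries and 15247 genes. For 4 of the 7 genes the log2 fold change was higher in 786O than in CAKi-1, and for 1 it was lower. Over all genes, it was higher in 786O for 26.3% and lower for 28.8%. These counts go by sign and not by size, since *CDKN1C*, the gene counted as lower, fell in both lines and fell more in 786O. In log2 units, 786O minus CAKi-1, the difference was 2.31 for *CDKN1A* (SE 0.068, adjusted p = 1.33e-11), 1.60 for *MDM2* (SE 0.16, adjusted p = 2.02e-06), 0.50 for *CDKN2C* (SE 0.11, adjusted p = 0.00147) and 0.35 for *FDXR* (SE 0.085, adjusted p = 0.00293). It was -2.60 for *CDKN1C* (SE 0.25, adjusted p = 1.38e-06). *GDF15* (-0.33, SE 0.43, adjusted p = 0.534) and *CDKN1B* (0.14, SE 0.11, adjusted p = 0.319) did not pass this test, and with CAKi-1 A4KO libraries 2, 3 and 5 alone the value for *GDF15* was 0.0032.

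The same comparison was made for 35 other p53 targets, all with data in both lines. In CAKi-1, 4 rose and 15 fell, where 17.9% of all genes rose and 21.1% fell, and their median log2 fold change was -0.171 (all genes -0.0078). In 786O, 24 rose and 3 fell, where 27.5% of all genes rose and 33.5% fell, and their median was 0.576 (all genes -0.030). There were 12 genes that fell in CAKi-1 and rose in 786O, and 2 that rose in both, *BBC3* and *TP53INP1*. The share of all genes that fell in CAKi-1 and rose in 786O was not computed. Among the 12 were the cell death genes *BAX*, *FAS* and *TNFRSF10B* and the repair gene *DDB2*. Other cell death genes differed from these, since *BBC3* rose in both lines and *PMAIP1* fell in 786O. By the interaction test, the log2 fold change was higher in 786O than in CAKi-1 for 25 of the 35 genes and lower for 2. Over all genes, these shares were 26.3% and 28.8%. In CAKi-1 the counts were 2 higher and 17 lower with A4KO libraries 2, 3 and 5 alone, and 6 higher and 10 lower with the neighbouring genes taken off. They were 1 higher and 13 lower without WT library 2, and 5 higher and 13 lower without WT library 4.

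The largest differences among these targets were as follows. *EDA2R*, a death receptor of the TNF receptor family, was at 1.19 to 1.57 TPM in 786O WT and 10.9 to 11.8 TPM in 786O A4KO (log2 fold change 2.39, adjusted p = 1.69e-06), and fell slightly in CAKi-1 (-0.24, adjusted p = 0.00989). *BTG2*, an antiproliferative gene, rose in 786O (1.63, adjusted p = 3.44e-05) and fell in CAKi-1 (-0.75, adjusted p = 9.59e-05). *AEN*, a nuclease of apoptotic DNA degradation, also rose in 786O (1.27, adjusted p = 1.10e-05) and fell in CAKi-1 (-0.68, adjusted p = 0.00780). These 3 genes moved as *CDKN1A* and *MDM2* did.

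*POLH*, a translesion DNA polymerase gene, fell in CAKi-1 (-0.92, adjusted p = 0.00485) and was at -0.14 (adjusted p = 0.356) in 786O. The largest rises in CAKi-1 with no overlap were *TP53INP1* (0.60, adjusted p = 0.0110) and *ANKRA2* (0.58, adjusted p = 0.0176). The 3 targets that fell in 786O were *TP53I3* (-0.78), *SUSD6* (-0.74) and *PMAIP1* (-0.40), the last a BH3-only cell death gene.

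**Figure D4:**
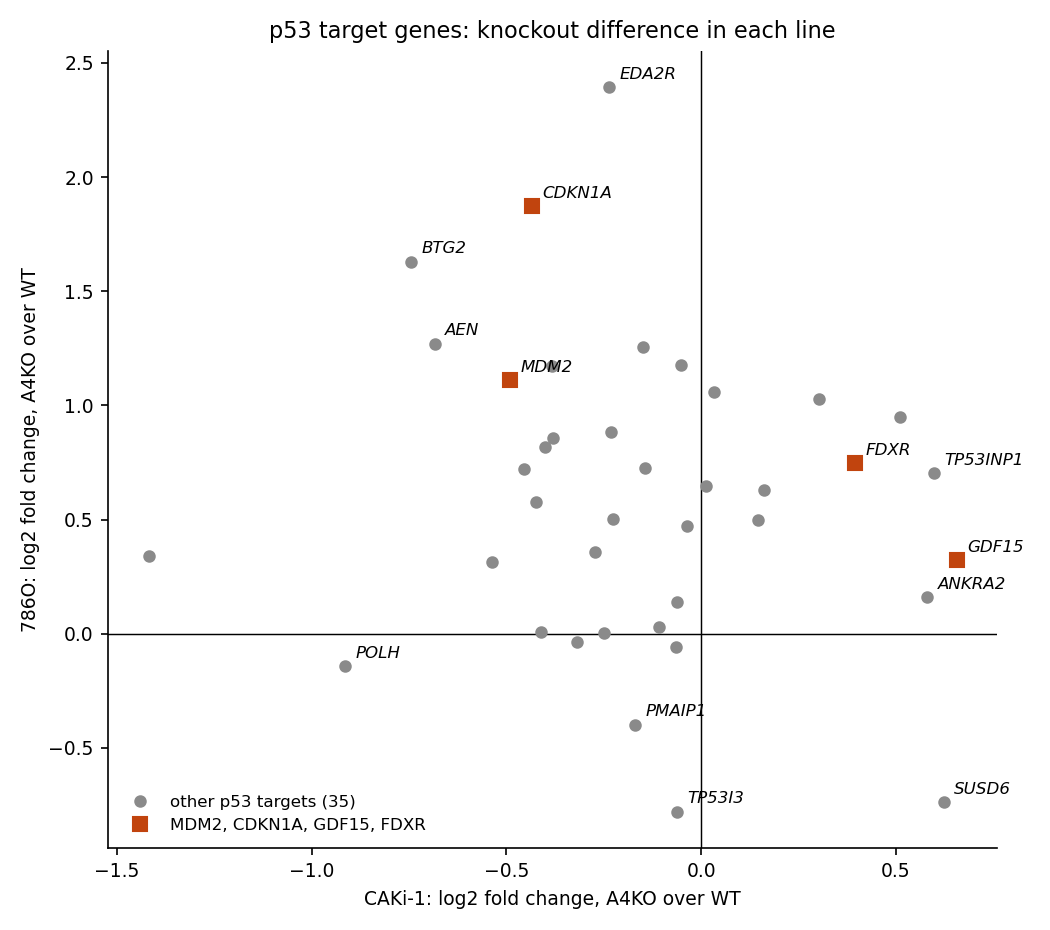
Log2 fold change of A4KO over WT in CAKi-1 (horizontal axis) and in 786O (vertical axis) for 35 other p53 targets (grey) and for *MDM2*, *CDKN1A*, *GDF15* and *FDXR* (red squares), with 9 of the grey points and all 4 red squares named. The upper left area holds *CDKN1A*, *MDM2*, *EDA2R*, *BTG2* and *AEN*, which were lower in CAKi-1 A4KO and higher in 786O A4KO.

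Genes that regulate p53 were compared in the same way. *MDM4*, the MDM2 partner that binds and blocks p53, was at -0.11 (adjusted p = 0.445) in CAKi-1 and fell in 786O (-0.84, adjusted p = 0.00388). Of 16 genes of the p53 regulator list, 2 rose and 6 fell in CAKi-1 and 4 rose and 8 fell in 786O, with *CHEK1*, a checkpoint kinase gene, falling in both (-0.50, adjusted p = 0.00644, and -0.87, adjusted p = 1.10e-05). Over all genes, 17.9% rose and 21.1% fell in CAKi-1 and 27.5% rose and 33.5% fell in 786O. With the neighbouring genes taken off, the CAKi-1 counts were 3 higher and 2 lower. RNA levels do not measure the amount or activity of the p53 protein, which was not analysed here.

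Genes that the CDK inhibitors act on or that lie downstream of them were counted too, and so were DREAM targets and stress genes, each against the same shares of all genes. Of 20 cyclins, CDKs, RB proteins and related genes, 0 rose and 7 fell in CAKi-1, and 12 rose and 4 fell in 786O. *CCND1* (cyclin D1), the partner of CDK4 and CDK6, fell in CAKi-1 from 138 ± 10.7 TPM (n = 4) to 39.0 ± 7.70 TPM (n = 5; log2 fold change -1.82, adjusted p = 2.52e-05). In 786O the largest rises were *SKP2*, which marks p27 for degradation (0.91, adjusted p = 2.23e-05), *E2F4* (0.75, adjusted p = 5.81e-05) and *E2F1* (0.71, adjusted p = 1.37e-05), and the largest fall was *CDKN3*, a phosphatase of CDK2 (-1.09, adjusted p = 5.64e-06). In CAKi-1 the counts were 1 higher and 10 lower with the neighbouring genes taken off, and 2 higher and 7 lower with A4KO libraries 2, 3 and 5 alone. In 786O, 13 rose and 1 fell with the neighbouring genes taken off.

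The DREAM complex is the repressor of cell cycle genes to which p53 and p21 signal. Of 20 of its targets, 0 rose and 14 fell in CAKi-1, with a median log2 fold change of -0.568, and 10 rose and 4 fell in 786O, with a median of 0.15. *PLK1*, a mitotic kinase gene, fell in CAKi-1 (-0.94, adjusted p = 0.00827) and rose in 786O (0.46, adjusted p = 7.02e-05). *RRM2*, a ribonucleotide reductase gene, had the largest rise in 786O (1.10, adjusted p = 1.04e-05). In CAKi-1, *RRM2* was at -0.56 (adjusted p = 0.0654), and *CCNB2*, *BUB1B*, *CDC20*, *MYBL2* and *MCM5*, whose groups overlapped, did not pass either. Under quantile normalization and under that scaling by the median ratio, 10 fell in CAKi-1 and 0 rose. With CAKi-1 A4KO libraries 2, 3 and 5 alone, 13 fell in CAKi-1 and the median was -0.27, and with the neighbouring genes taken off, 5 rose and 4 fell in 786O.

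Since *GDF15* also answers to ATF4 and CHOP, 12 genes of that stress response were counted, of which 6 rose and 1 fell in CAKi-1 and 5 rose and 6 fell in 786O. *DDIT4*, an inhibitor of mTORC1 signalling, rose in CAKi-1 (1.29, adjusted p = 0.0143) and was at 182 to 467 TPM across A4KO. In 786O *ATF3* rose (1.66, adjusted p = 2.49e-05) while *CHAC1* (-1.56, adjusted p = 1.69e-06) and the asparagine synthetase gene *ASNS* (-1.19, adjusted p = 6.22e-06) fell. *DDIT3*, the gene for CHOP, was at -0.08 (adjusted p = 0.545) in CAKi-1 and fell in 786O (-0.51, adjusted p = 7.62e-04).

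**Figure D5:**
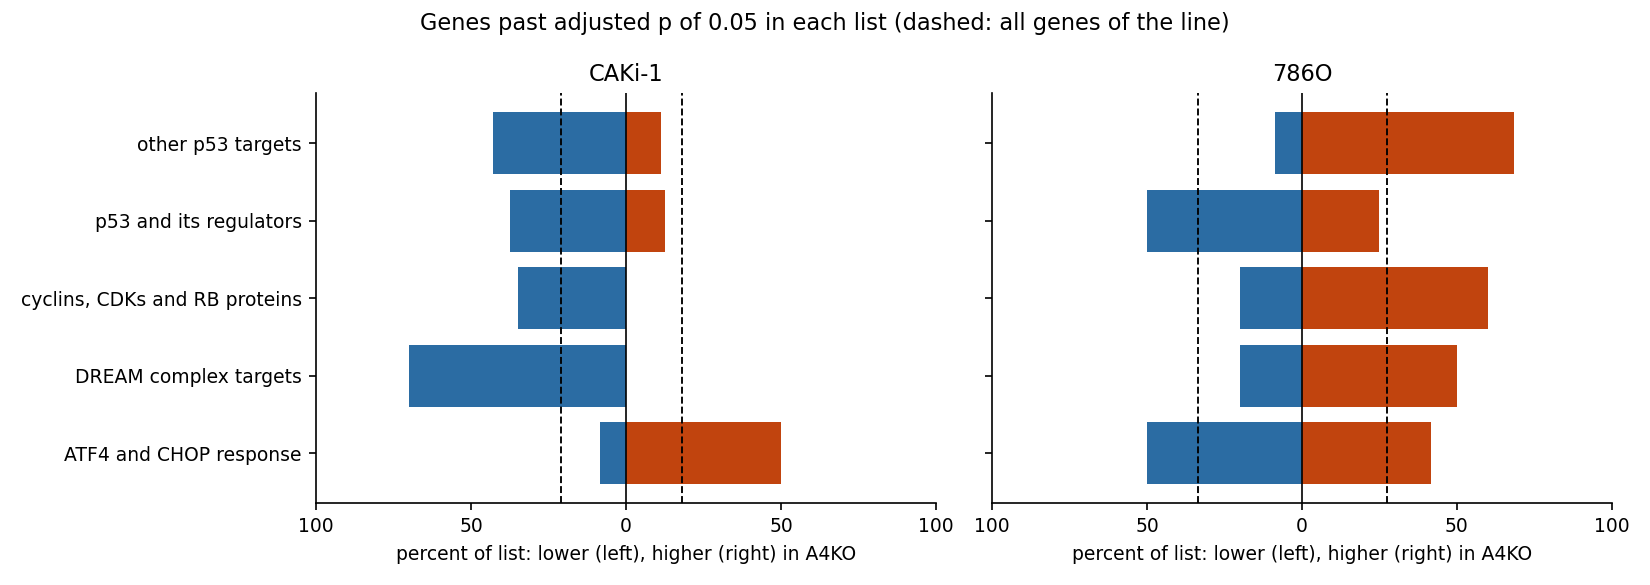
Percent of each gene list that was lower (left, blue) or higher (right, red) in A4KO cells at an adjusted p of at most 0.05, in CAKi-1 and 786O, with dashed lines for the percent over all genes of the line. For the other p53 targets, the bar to the left is the longer one in CAKi-1 (15 of 35 lower, 4 higher) and the bar to the right in 786O (24 of 35 higher, 3 lower).

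The genes most like *CDKN1A*, *MDM2* and *GDF15* were sought among 10163 genes with a mean of at least 5 TPM, by Pearson's r of log2(TPM + 1) over the 9 CAKi-1 libraries. The libraries come from 2 genotypes and share that difference, so r is given as a description. The genes nearest to *CDKN1A* were *BLVRB* (r = 0.995), *GPRC5B* (r = 0.990) and *HOXB8* (r = 0.989). Nearest to *MDM2* were *COX20* (r = 0.964), *MAPK8* (r = 0.955) and *CLCC1* (r = 0.955), and nearest to *GDF15* were *TRIM8* (r = 0.979), *TNFAIP2* (r = 0.977) and *FEZ1* (r = 0.976).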

How the data were processed

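RNA-seq data of 15 libraries were used, grouped by the genotype in the sample labels. The authors pseudoaligned reads to hg38 with kallisto and deposited 1 table per line of gene-level TPM, a unit taken from the values, which are not whole and sum to between 961437 and 973887 per library. How transcripts were summed, which genes were left out and the reads obtained per library, beside the stated depth, are not given in the sources used here. TPM keeps no depth and count models were not applied.

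From the deposited TPM, each line was fitted on its own by limma 3.58.1 in R 4.3.3, with log2(TPM + 1) as the response and A4KO set against WT (lmFit, eBayes, two-sided, Benjamini-Hochberg over all genes, no filter), and between lines with an interaction term over 15247 shared genes. Fold changes are on the log2(TPM + 1) scale and understate the change of low genes. Ratios of means are of TPM. The fits were tested on simulated data. Positions are from GENCODE v44.

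The genes, lists and tests were chosen with earlier results of these data known. Genes named from a list are its 3 largest rises and falls per line among those past the test with no overlap, or examples of its counts, beside *MDM4*, *CDKN2D* and *MTAP*, which were always given; some genes of the lists were counted but are not reported here by name. *BAX*, *FAS*, *TNFRSF10B*, *DDB2*, *BBC3* and *DDIT3* were named after their values were seen. Replicate numbers did not pair the libraries (correlation of same-numbered deviations -0.061 to 0.13 in CAKi-1 and -0.046 to 0.018 in 786O), so no block was used in the main fits. Alternatives were other scalings, pseudocounts, filters and thresholds, trend and robust options, and the replicate number as a block. Others were an exact permutation test, removal of neighbouring genes' deviation and leaving out libraries. Counts of the lists other than the p53 targets were repeated under the scalings, the removal of neighbours and A4KO libraries 2, 3 and 5 after the data were seen.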

Additional observations from a re-analysis of the deposited data

Results flagged for a closer look

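The knockout difference differed between the lines by the interaction test for 5 of the 7 genes with data. The log2 fold change was higher in 786O for 4 and lower for 1, *CDKN1C*, which fell more in 786O. Over all genes, 26.3% were higher and 28.8% lower. In log2 units, 786O minus CAKi-1, this difference of differences was 1.60 for *MDM2*, 2.31 for *CDKN1A*, 0.50 for *CDKN2C*, 0.35 for *FDXR* and -2.60 for *CDKN1C*. Among the other genes checked, it was 2.63 for *EDA2R*, 2.38 for *BTG2*, 1.95 for *AEN*, 0.77 for *POLH* and 0.71 for *CDKN2D*, and -1.36 for *SUSD6*, -0.73 for *MDM4* and -0.72 for *TP53I3*.

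Single libraries lay far from the rest of their group by Dixon's test in 2 of 40 groups of CAKi-1 libraries checked, where chance flags about 1 in 20. *FDXR* was at 45.8 TPM in CAKi-1 A4KO library 2, and the next highest of the 5 was 41.2 TPM. *MDM4* was at 10.8 TPM in CAKi-1 WT library 3, and the next highest of the 4 was 8.13 TPM. The 786O groups of 3 were too small to check.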

How the results depend on the processing

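With an absolute log2 fold change of 1 required as well, 0 of the 7 genes remained in CAKi-1, 3 in 786O and 3 in the test between lines, and 1 and 8 of the 35 other p53 targets in CAKi-1 and 786O, where 3.33% and 7.62% of all genes did. With the replicate number as a block (replicate block) 4 of 7 genes passed in CAKi-1 and 6 of 7 in 786O, the same counts as without it. No WT library shares the number of CAKi-1 A4KO library 5, so that fit takes nothing from this library and its CAKi-1 values equal those without it. *CDKN1B*, which never passed in CAKi-1, changed sign from -0.015 to 0.068 (quantile normalization), 0.014 (median scaling), 0.031 (replicate block, and the same without A4KO library 5) and 0.061 (neighbouring genes taken off), and lay between -0.053 and 0.032 when 1 library was left out. With the neighbouring genes taken off, *CDKN2C* in CAKi-1 was -0.094 and *CDKN1B* in 786O was -0.032. With A4KO libraries 2, 3 and 5 alone, *CDKN2C* in CAKi-1 was -0.023 and the difference between lines for *GDF15* was 0.0032. Apart from the block, the cause of these changes was not tested, and none of these values passed the test. Over the other alternatives, *MDM2* stayed between -0.55 and -0.32 in CAKi-1 and between 0.92 and 1.25 in 786O. *CDKN1A* stayed between -0.47 and -0.36 in CAKi-1 and between 1.86 and 2.15 in 786O. Both genes were past an adjusted p of 0.05 in each limma fit. The exact permutation test in CAKi-1 gave unadjusted p = 0.0159 for *MDM2* and 0.00794 for *CDKN1A*. The scaling alternatives moved the median of all genes by at most 0.053. Depth limits low genes, and its size cannot be read from TPM.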
